A study of Mus musculus with 6 samples.

Results

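Expression of 7 genes of lipoxygenase biology and phospholipid remodelling, Alox5, Alox5ap, Alox12, Alox15, Aloxe3, Lpcat3 and Pla2g4a, was examined in whole ovaries of Bnc1+/+ and Bnc1tr/tr mice. The genes were taken by symbol, and all 7 were found among the 44788 genes listed. RNA-seq covered 3 Bnc1+/+ ovaries (replicates 1, 4 and 7) and 3 Bnc1tr/tr ovaries (replicates 1, 2 and 3), all from mice aged 8 weeks on a C57BL/6 J background. Bnc1tr/tr mice were homozygous for a deletion of 5 bases in exon 4 of Bnc1, which shifts the reading frame and ends the protein early. The allele was carried in every cell of the body, not in oocytes alone, and both genotypes came from crosses of heterozygous mice. The sample labels do not say that the ovaries of a genotype came from separate animals, so the p values measure the spread between these samples.

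Lipoxygenases add oxygen to polyunsaturated fatty acids. 5-lipoxygenase (Alox5) works with its activating protein (Alox5ap) in the synthesis of leukotrienes, whereas the products of Alox12 and Alox15 are other hydroxylated fatty acids, and Aloxe3 serves the skin barrier. The substrate, mainly arachidonic acid, is released from membrane phospholipids by phospholipases A2 such as the cytosolic enzyme Pla2g4a, and Lpcat3 puts polyunsaturated acyl chains back into lysophospholipids. The same polyunsaturated phospholipids are the lipids that become oxidized in ferroptosis, an iron-dependent form of cell death.

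Gene counts summed to between 25247770 and 34406296 per ovary. After the filter on low counts 19423 genes were tested, and all 7 genes were among them. At an adjusted p under 0.05 in the quasi-likelihood test of edgeR, 1372 genes (7.06%) were called, 813 of them (4.19%) lower and 559 (2.88%) higher in Bnc1tr/tr ovaries. The count of called genes fell to 781, 320 and 518 without Bnc1+/+ replicate 1, 4 or 7, and to 634 without Bnc1tr/tr replicate 3. The groups did not overlap in 30.8% of the genes tested. Bnc1 itself, whose transcript the small deletion does not remove, was at 13.1 to 13.9 CPM (read counts scaled to library size) in Bnc1+/+ and at 11.5 to 18.7 CPM in Bnc1tr/tr ovaries, so its level does not check the genotypes. Corpus luteum markers, 8 of 10 of which were called lower, summed to 23400 to 28100 CPM in Bnc1+/+ and 7360 to 12700 CPM in Bnc1tr/tr ovaries. The sum of the oviduct markers was highest in Bnc1+/+ replicate 1 (205 CPM) and Bnc1tr/tr replicate 3 (579 CPM), against 72.6 to 112 CPM in the other ovaries. All CPM values were scaled with TMM (trimmed mean of M values) factors.

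Of the 7 genes, Alox12 alone was called, and it was lower in Bnc1tr/tr ovaries, while 7.06% of all genes tested were called. The groups did not overlap in 2 of the 7, Alox12 and Lpcat3, both lower in Bnc1tr/tr ovaries, compared with 30.8% of all genes. The median log2 fold change of the 7 genes was 0.04, beside 0.02 over all genes tested.

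Alox12 encodes the platelet-type 12-lipoxygenase and lies on chromosome 11 (GRCm38, bases 70241457 to 70255353, minus strand). Its level was 14.0, 14.7 and 15.6 CPM in Bnc1+/+ replicates 1, 4 and 7 and 5.41, 6.97 and 6.98 CPM in Bnc1tr/tr replicates 1, 2 and 3. Every Bnc1tr/tr ovary lay below the lowest Bnc1+/+ ovary, and the lowest of all was Bnc1tr/tr replicate 1. The means were 14.7 ± 0.79 and 6.45 ± 0.905 CPM (SD, n = 3), on 376 to 486 reads and 152 to 198 reads. Alox12 thus fell by 1.19 on the log2 scale (SE 0.14, 95% interval -1.52 to -0.86, adjusted p = 0.00456 in edgeR), a level 2.28-fold lower. The call held in all 14 alternatives, among them the omission of each ovary in turn, with log2 fold changes of -1.30 to -1.08 and adjusted p of 3.5e-10 to 0.0462. In whole ovaries, fewer cells of a type and less RNA per cell cannot be told apart. The summed corpus luteum markers given above were lower in the same 3 ovaries and lowest in the same one, Bnc1tr/tr replicate 1. Cyp11a1 and Hsd3b1 were the largest terms of that sum, at 1970 and 3950 CPM in Bnc1tr/tr replicate 1. Within the Bnc1tr/tr group, Lhcgr (92.8, 86.0 and 79.0 CPM) and Sfrp4 (387, 243 and 168 CPM) were highest in replicate 1. Ptgfr was lowest in replicate 3 (42.5 CPM), and the rest of the list was lowest in replicate 1. For Akr1c18 and Parm1 the genotypes overlapped. The part of these markers in the Alox12 result was not tested. Platelet markers summed to 10.2 to 12.8 CPM in Bnc1+/+ and 9.71 to 16.9 CPM in Bnc1tr/tr ovaries. In edgeR 7.06% of all genes tested were called. Of the 7 platelet genes 3 were tested and none was called in edgeR or DESeq2 (1 with an unadjusted p under 0.05). That 1 was Gp1bb, at 0.558, 0.906 and 1.31 CPM in Bnc1+/+ and 0.534, 0.269 and 0.493 CPM in Bnc1tr/tr ovaries. Its groups did not overlap (log2 fold change -1.09, adjusted p = 0.163 in edgeR), whereas those of Pf4 (0.35) and Itga2b (0.07) did. Ppbp, not tested, had 3 to 5 reads in Bnc1+/+ and 0 to 2 reads in Bnc1tr/tr ovaries. Gp9 and Tubb1 were at or under 3 counts in every ovary. The part of platelets in the Alox12 level was not tested.

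**Figure D1:**
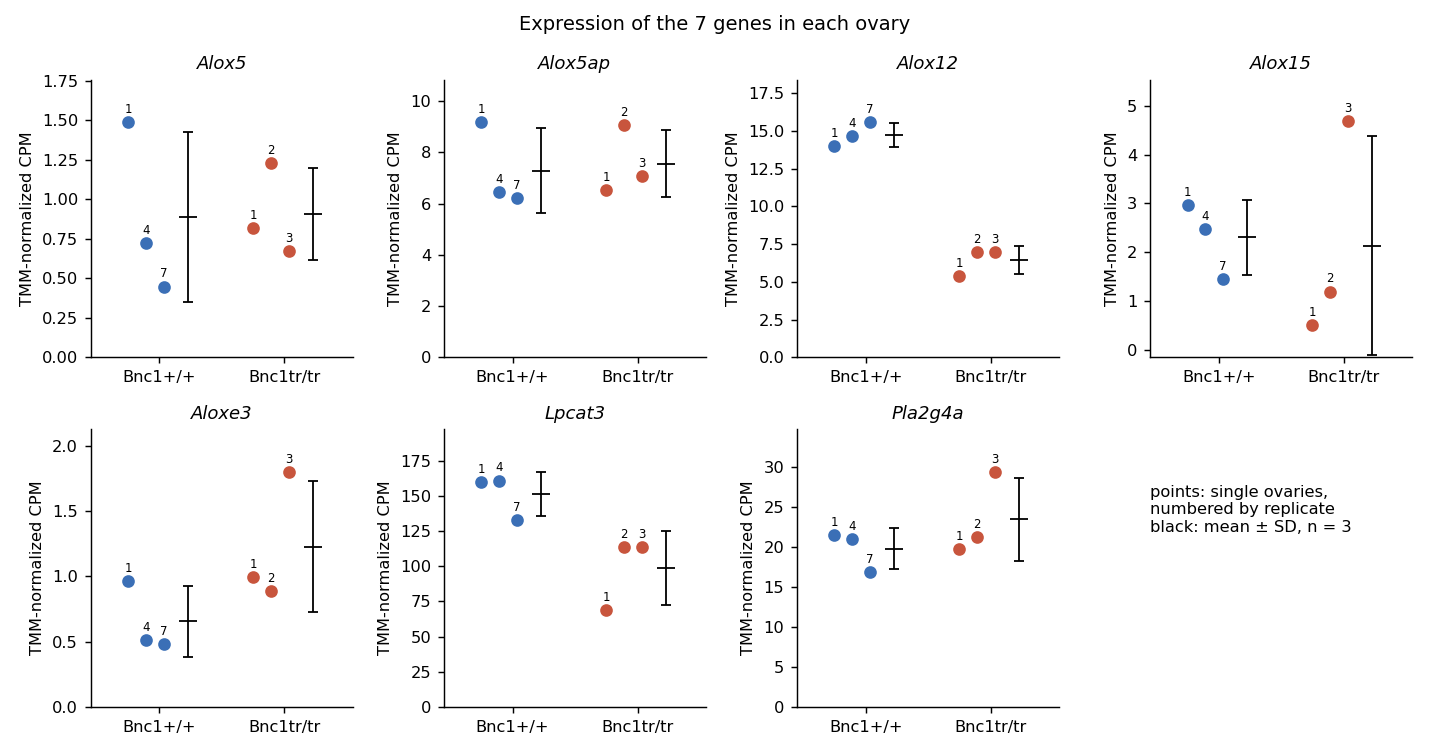
TMM-normalized CPM (linear y axes that differ between panels) of the 7 genes in 3 Bnc1+/+ (blue) and 3 Bnc1tr/tr (red) ovaries, with each replicate number above its point and the mean ± SD in black. The Alox12 points of Bnc1tr/tr ovaries, 5.41 to 6.98 CPM, lie below those of Bnc1+/+ ovaries, 14.0 to 15.6 CPM, and for Lpcat3 the groups are also apart, whereas they overlap in the other 5 panels.

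The sequences before the starts of Alox12 and Lpcat3 are shown because these were the genes of the 7 whose groups did not overlap. They come from RefSeq (GRCm38.p6), which had promoter entries for 4 of the 7 genes. The Alox12 stretch is the 250 bases before the start, chr11:70255371-70255620 on the minus strand. The Lpcat3 stretch is chr6:124662854-124663026 on the plus strand, 173 bases that end where annotated exons of the gene begin. Capitals mark GC boxes (GGGCGG on either strand).
Alox12: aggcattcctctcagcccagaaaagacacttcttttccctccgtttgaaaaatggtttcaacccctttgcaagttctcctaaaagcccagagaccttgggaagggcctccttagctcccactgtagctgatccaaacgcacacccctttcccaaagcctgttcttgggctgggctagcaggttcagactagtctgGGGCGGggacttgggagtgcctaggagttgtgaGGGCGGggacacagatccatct
Lpcat3: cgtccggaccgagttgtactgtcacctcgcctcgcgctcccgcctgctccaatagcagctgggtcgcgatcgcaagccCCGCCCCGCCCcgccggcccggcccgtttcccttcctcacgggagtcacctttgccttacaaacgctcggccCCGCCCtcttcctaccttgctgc
The Alox12 stretch held 2 GC boxes, at 55 to 50 and 22 to 17 bases before the RefSeq start. The Lpcat3 stretch held 3 on the opposite strand, of which the first and the second overlap by 1 base. A GC box was found in 32.7% of 32851 promoters searched over 250 bases, a longer window than the Lpcat3 stretch. GC content was 54.0% for Alox12 and 68.8% for Lpcat3. Neither stretch held AAGGTCA (an NR5A site, present in 4.08% of promoters), TGACGTCA (a cAMP response element, 1.55%), TCACNCCAC (a sterol response element, 1.05%), AGGTCA (a nuclear receptor core site contained in the first, 14.0%) or TATAAA (12.4%) on either strand. These matches describe letters in these windows only.

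Alox12 stands in a cluster of lipoxygenase genes, 60256 bases from Alox12e, which is in turn 21523 bases from Alox15. Of the 12 annotated genes within 100 kb of Alox12, 8 were tested and none was called in edgeR, beside 7.06% of all genes tested. Of the 8, 1 had an unadjusted p under 0.05 in edgeR, and 1 was called in DESeq2. It was Bcl6b in both, named after its values were seen (log2 fold change -0.65, adjusted p = 0.0621 in edgeR). Alox12, Alox12e and Alox15 are related in sequence, and how the counting treated reads that match more than 1 of them was not given in the sources used here.

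Alox15, the mouse 12/15-lipoxygenase found in macrophages and epithelia, showed no call. Its level was 2.97, 2.48 and 1.45 CPM in Bnc1+/+ replicates 1, 4 and 7 and 0.498, 1.19 and 4.69 CPM in Bnc1tr/tr replicates 1, 2 and 3. The 3 Bnc1tr/tr ovaries held both the lowest and the highest level of all, so the groups overlapped. The log2 fold change was -0.11 (SE 0.71, 95% interval -1.75 to 1.54, adjusted p = 0.945 in edgeR), an interval that leaves room for changes of over 1 in either direction. The direction turned to 0.11 without Bnc1+/+ replicate 1, to 0.36 without Bnc1tr/tr replicate 1 and to 0.17 without Bnc1tr/tr replicate 2, and the value was -1.45 (adjusted p = 0.166) without Bnc1tr/tr replicate 3.

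The epidermal-type gene Alox12e spread more widely, from 0 reads in Bnc1tr/tr replicate 1 to 164 reads (5.78 CPM) in Bnc1tr/tr replicate 3. The other ovaries were at 42, 6 and 2 reads (1.56, 0.181 and 0.069 CPM) in Bnc1+/+ replicates 1, 4 and 7 and at 18 reads (0.693 CPM) in Bnc1tr/tr replicate 2. The log2 fold change was 1.87 (SE 1.47, adjusted p = 0.484 in edgeR), and it was -0.79 without Bnc1tr/tr replicate 3. For both Alox15 and Alox12e the highest ovary was Bnc1tr/tr replicate 3 and the next was Bnc1+/+ replicate 1. These were also the ovaries with the highest levels of Foxj1, the master regulator of motile cilia, at 37.1 and 7.88 CPM against 0.345 to 1.45 CPM in the other 4. The summed oviduct markers (579 and 205 CPM) followed the same order at the top, with Ovgp1 alone at 423 and 106 CPM. Pax8, Ccdc39 and Krt19 did not share this order, and the rest of the oviduct markers did. Pax8 and Ccdc39 were lower in Bnc1+/+ replicate 1 (1.19 and 2.30 CPM) than in Bnc1tr/tr replicate 1 (1.49 and 2.42 CPM). Krt19 was highest in Bnc1tr/tr replicate 2, at 83.7 CPM. Of 9 tested oviduct markers none was called in edgeR, beside 7.06% of all genes tested. Of these markers, 1 had an unadjusted p under 0.05 in edgeR and 1 was called in DESeq2. Without these 2 ovaries the Alox15 log2 fold change was -1.23 (adjusted p = 0.315 in edgeR), an alternative chosen after seeing the data. The part of oviduct RNA in these values was not tested.

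**Figure D2:**
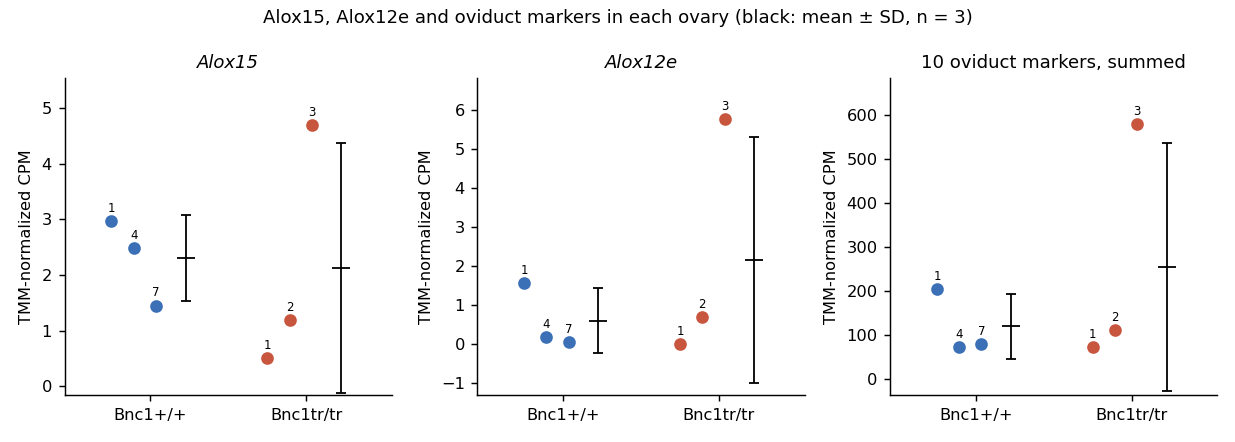
TMM-normalized CPM (linear y axes) of Alox15, Alox12e and the sum of 10 oviduct markers in each ovary, Bnc1+/+ in blue and Bnc1tr/tr in red, with replicate numbers above the points and the mean ± SD (n = 3) in black, whose lower bar can pass below 0. In all 3 panels Bnc1tr/tr replicate 3 is highest (4.69, 5.78 and 579 CPM) and Bnc1+/+ replicate 1 is next (2.97, 1.56 and 205 CPM).

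The leukotriene pair Alox5 and Alox5ap did not pass the test. Alox5ap, which hands arachidonic acid to 5-lipoxygenase, was at 9.18, 6.44 and 6.21 CPM in Bnc1+/+ and 6.54, 9.05 and 7.08 CPM in Bnc1tr/tr ovaries. The difference on the log2 scale was 0.06 (SE 0.21, 95% interval -0.43 to 0.54, adjusted p = 0.899 in edgeR). Alox5 was at 1.49, 0.725 and 0.448 CPM in Bnc1+/+ and 0.818, 1.23 and 0.670 CPM in Bnc1tr/tr ovaries, on 13 to 40 reads per ovary. The groups of both genes overlapped throughout. The log2 fold change of Alox5 was 0.04 (SE 0.47, 95% interval -1.05 to 1.12, adjusted p = 0.973 in edgeR), an interval that holds changes of 2-fold either way.

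Neither direction was stable. Without Bnc1+/+ replicate 4, Bnc1+/+ replicate 7 or Bnc1tr/tr replicate 2, the log2 fold change was -0.10, -0.29 and -0.25 for Alox5 and -0.03, -0.05 and -0.09 for Alox5ap. Both genes were highest in Bnc1+/+ replicate 1, followed by Bnc1tr/tr replicate 2. The sum of 8 leukocyte markers was also highest in these 2 ovaries, at 161 and 183 CPM, against 113 to 148 CPM in the other 4. None of these 8 markers and none of 12 macrophage markers was called in edgeR or DESeq2, while edgeR called 7.06% of all genes tested. The log2 fold change was negative for 5 of the 8 and for 10 of the 12. In each of these lists 1 marker had an unadjusted p under 0.05. The macrophage sum was 642, 683 and 666 CPM in Bnc1+/+ replicates 1, 4 and 7, so replicate 1 was the lowest of its group. It was 474, 865 and 497 CPM in Bnc1tr/tr replicates 1, 2 and 3. The 10 neutrophil and eosinophil markers summed to 4.38 to 5.87 CPM in Bnc1+/+ and 7.47 to 8.74 CPM in Bnc1tr/tr ovaries, with Elane and Ly6g at 0 reads in every ovary. Of the 10 markers 2 were tested, and Mpo, the granule peroxidase, was called higher at 2.85 to 5.08 CPM in Bnc1tr/tr against 0.138 to 0.372 CPM in Bnc1+/+ ovaries (adjusted p = 0.00269 in edgeR). Without Mpo the sum was 4.20 to 5.69 CPM in Bnc1+/+ and 2.85 to 5.89 CPM in Bnc1tr/tr ovaries, and the groups overlapped. Csf3r, the other tested marker, was at 3.41 to 4.72 CPM in Bnc1+/+ and 2.38 to 4.97 CPM in Bnc1tr/tr ovaries (log2 fold change -0.38, not called), and S100a9 had means of 0.479 and 0.257 CPM. The part of leukocytes in the levels of Alox5 and Alox5ap was not tested. Alox5ap shares 189 exon bases (13.3% of its exons) with the antisense gene Gm19719, and whether the counting used strand was not given in the sources used here.

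Aloxe3, an epidermal lipoxygenase that isomerizes hydroperoxides, was the member with the largest positive value, but it was not called. It was at 0.967, 0.514 and 0.483 CPM in Bnc1+/+ and 0.996, 0.885 and 1.80 CPM in Bnc1tr/tr ovaries, on 14 to 51 reads. The groups overlapped only in that Bnc1+/+ replicate 1 lay above Bnc1tr/tr replicate 2. The log2 fold change was 0.91 (SE 0.41, 95% interval -0.03 to 1.86, adjusted p = 0.221 in edgeR) and stayed between 0.53 and 1.28 over the 14 alternatives. The value of 0.53 was that without Bnc1tr/tr replicate 3, the highest ovary for Aloxe3 and for the summed oviduct markers. Without that ovary and Bnc1+/+ replicate 1 together it was 0.90. Its partner in the skin, Alox12b, had 2 to 6 reads per ovary and Alox8 at most 1, and neither was tested. Markers of stratified epithelium summed to 9.06 to 9.45 CPM in Bnc1+/+ and 12.8 to 17.7 CPM in Bnc1tr/tr ovaries. Of these 10 markers, Ivl and Dsg3 had 0 reads in every ovary, 5 were tested, and Tgm1, the transglutaminase of the cornified envelope, was called higher (log2 fold change 2.86, adjusted p = 0.0018 in edgeR). Without Tgm1 the sum was 8.40 to 8.93 CPM in Bnc1+/+ ovaries and 13.2, 8.97 and 9.80 CPM in Bnc1tr/tr replicates 1, 2 and 3, and Trp63 was highest in Bnc1tr/tr replicate 1, at 9.71 CPM against 5.20 to 6.24 CPM in the other 5. The basal keratin Krt14 was not called (log2 fold change -0.65), and Krt5 had at most 1 read per ovary. The part of these markers and of oviduct RNA in the Aloxe3 level was not tested.

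Lpcat3, the acyltransferase that loads arachidonate into phospholipids, was at 160, 161 and 133 CPM in Bnc1+/+ and 68.6, 114 and 114 CPM in Bnc1tr/tr ovaries. Every Bnc1tr/tr ovary lay below every Bnc1+/+ ovary, and Bnc1tr/tr replicate 1 was well below the other 2 of its group. The means were 152 ± 15.9 and 98.7 ± 26.0 CPM (SD, n = 3). The log2 fold change of -0.62 (SE 0.19, 95% interval -1.07 to -0.17) had an adjusted p of 0.0996 in edgeR, and so missed the threshold. Over 14 alternatives the adjusted p ran from 0.0189 to 0.279, with a call in DESeq2 alone. Without Bnc1tr/tr replicate 1 the log2 fold change was -0.42 (SE 0.10, adjusted p = 0.0731). The summed corpus luteum markers were lower in the same ovaries, and their part was not tested. Lpcat3 shares 334 exon bases (10.2%) with Emg1 on the opposite strand, whose reads numbered 2425 to 3516 in Bnc1+/+ and 2254 to 2713 in Bnc1tr/tr ovaries.

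Pla2g4a, the calcium-dependent enzyme that frees arachidonic acid from membranes, was at 21.5, 21.0 and 16.9 CPM in Bnc1+/+ and 19.7, 21.2 and 29.4 CPM in Bnc1tr/tr ovaries. The groups overlapped, and Bnc1tr/tr replicate 3 was the highest. The log2 fold change was 0.24 (SE 0.17, 95% interval -0.15 to 0.64, adjusted p = 0.431 in edgeR), and 0.05 without Bnc1tr/tr replicate 3.

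**Figure D3:**
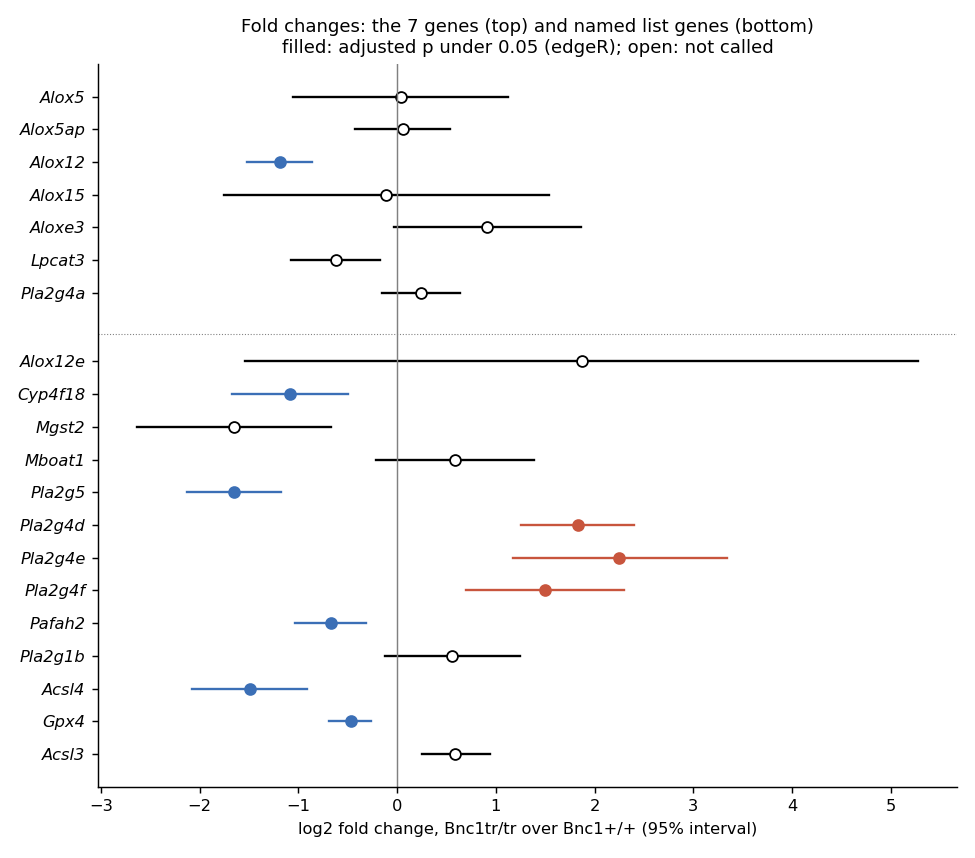
Log2 fold change (x axis, Bnc1tr/tr over Bnc1+/+) with its 95% interval for the 7 genes (top) and for the named genes of the pathway lists (bottom), filled where the adjusted p was under 0.05 (blue lower, red higher) and open elsewhere. Among the 7 genes only Alox12 (-1.19) is filled, and the interval of Lpcat3 (-1.07 to -0.17) leaves out 0 although its adjusted p of 0.0996 missed the threshold.

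Besides Alox12, the members lie on chromosome 6 (Alox5, 116410077 to 116461178, minus strand, and Lpcat3, 124663027 to 124704418, plus strand), chromosome 5 (Alox5ap, 149264767 to 149288153, plus strand), chromosome 11 (Alox15, 70344152 to 70352031, minus strand, and Aloxe3, 69125896 to 69149115, plus strand) and chromosome 1 (Pla2g4a, 149829618 to 149961290, minus strand). Reads were counted per gene, and levels were compared between genes per kilobase of exon. Over the 6 ovaries Lpcat3 was the highest at 38.3 CPM per kb (range 21.0 to 49.4), followed by Alox5ap at 5.22 (4.37 to 6.47), Pla2g4a at 3.39 (2.65 to 4.61), Alox12 at 2.59 (1.32 to 3.81), Alox15 at 0.902 (0.203 to 1.91), Alox5 at 0.218 (0.109 to 0.362) and Aloxe3 at 0.147 (0.0755 to 0.281). Lpcat3 lay above Alox5ap without overlap. Every other pair of neighbours in this order had overlapping ranges over the 6 ovaries. The order differed within the genotypes, since Alox12 (3.42 to 3.81) lay above Pla2g4a (2.65 to 3.37) in Bnc1+/+ ovaries and below it, at 1.32 to 1.71 against 3.09 to 4.61 CPM per kb, in Bnc1tr/tr ovaries. Alox5ap was thus far more abundant than the enzyme it serves, with a range of 4.37 to 6.47 against 0.109 to 0.362 CPM per kb. With the longest annotated transcript as the length, Pla2g4a (6.27 CPM per kb) moved above Alox5ap (5.93) and Lpcat3 was at 52.7 CPM per kb.

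The rest of the pathway was examined in 5 lists of 73 genes in all, with Mboat1 and Mboat2, which stand in 2 lists, counted once. Of 60 tested genes 8 were called (13.3%), 5 lower and 3 higher, beside 7.06% of all genes. The median log2 fold change of the lists with more than 1 tested gene lay between -0.08 and -0.01, beside 0.02 over all genes.

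The list of phospholipases A2 other than Pla2g4a held 5 of these calls among 22 tested genes of 28 (22.7%), beside 7.06% of all genes. It took in Abhd4 and the Pafah and Pnpla genes besides those named Pla2. The largest fall was that of Pla2g5, a secreted enzyme, at 78.8, 107 and 68.2 CPM in Bnc1+/+ and 21.1, 27.8 and 32.0 CPM in Bnc1tr/tr ovaries. The groups were well apart, and Pla2g5 fell by 1.65 on the log2 scale (SE 0.21, adjusted p = 0.00528 in edgeR), a call that held in all 14 alternatives. Pafah2, which hydrolyses platelet-activating factor and oxidized phospholipids, was at 31.3, 29.0 and 29.1 CPM in Bnc1+/+ and 14.7, 22.9 and 18.6 CPM in Bnc1tr/tr ovaries, and fell by 0.67 (SE 0.16, adjusted p = 0.0454 in edgeR). The call of Pafah2 was lost without Bnc1+/+ replicate 1, 4 or 7 or Bnc1tr/tr replicate 1 or 3 (log2 fold change -0.69 to -0.52, adjusted p 0.0551 to 0.155).

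The 3 phospholipases called higher were Pla2g4d, Pla2g4e and Pla2g4f, cytosolic relatives of Pla2g4a, where 2.88% of all genes were called higher. Pla2g4d was at 0.595, 0.574 and 0.517 CPM in Bnc1+/+ and 1.99, 1.81 and 2.22 CPM in Bnc1tr/tr ovaries. It rose by 1.83 on the log2 scale (SE 0.25, adjusted p = 0.0065 in edgeR), on 15 to 19 and 47 to 63 reads. Pla2g4e, an enzyme that makes N-acyl phosphatidylethanolamines, was at 0.818, 0.302 and 0.586 CPM in Bnc1+/+ and 3.59, 1.42 and 3.07 CPM in Bnc1tr/tr ovaries, a log2 fold change of 2.25 (SE 0.47, adjusted p = 0.0325 in edgeR). Pla2g4f was at 0.372, 0.604 and 0.586 CPM in Bnc1+/+ and 1.60, 1.0 and 1.87 CPM in Bnc1tr/tr ovaries, a log2 fold change of 1.50 (SE 0.35, adjusted p = 0.0429 in edgeR). Markers of stratified epithelium, a tissue in which these enzymes are known, summed to 9.06 to 9.45 CPM in Bnc1+/+ and 12.8 to 17.7 CPM in Bnc1tr/tr ovaries, or without Tgm1 to 8.40 to 8.93 CPM and 8.97 to 13.2 CPM, while Krt14 had a log2 fold change of -0.65, and their part was not tested. In none of these 3 genes did the groups overlap, but all were low, with 10 to 101 reads per ovary. The calls of Pla2g4e and Pla2g4f were lost without Bnc1+/+ replicate 1, 4 or 7 or Bnc1tr/tr replicate 1 or 3 (log2 fold change 1.93 to 2.59 and 1.31 to 1.62, adjusted p 0.0505 to 0.129 and 0.0937 to 0.146), and that of Pla2g4d without Bnc1+/+ replicate 4 (1.84, adjusted p = 0.0532).

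Pla2g4b, Pla2g4d, Pla2g4e and Pla2g4f lie within 280749 bases of chromosome 2. Pla2g4b, set beside the others after its values were seen, was at 13.8 to 15.4 CPM in Bnc1+/+ and 14.3 to 15.4 CPM in Bnc1tr/tr ovaries (log2 fold change 0.00, SE 0.10, adjusted p = 0.99 in edgeR). It shares 66.5% of its exon bases with Gm28042 on the same strand and 13.6% with Sptbn5 on the other, so its count is uncertain. Sptbn5 had 679, 808 and 481 reads in Bnc1+/+ and 63, 80 and 83 reads in Bnc1tr/tr ovaries. Its part in the Pla2g4b count was not tested. Pla2g4c, on another chromosome and also chosen afterwards, was at 22.2 to 29.6 CPM and 28.3 to 44.4 CPM (log2 fold change 0.51, adjusted p = 0.133 in edgeR). Of the phospholipases that were not called, Pla2g1b had the largest value (0.56, adjusted p = 0.293 in edgeR), which was 0.20 without Bnc1tr/tr replicate 1, where Pla2g1b was at 8.32 CPM against 3.52 to 5.29 CPM elsewhere.

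**Figure D4:**
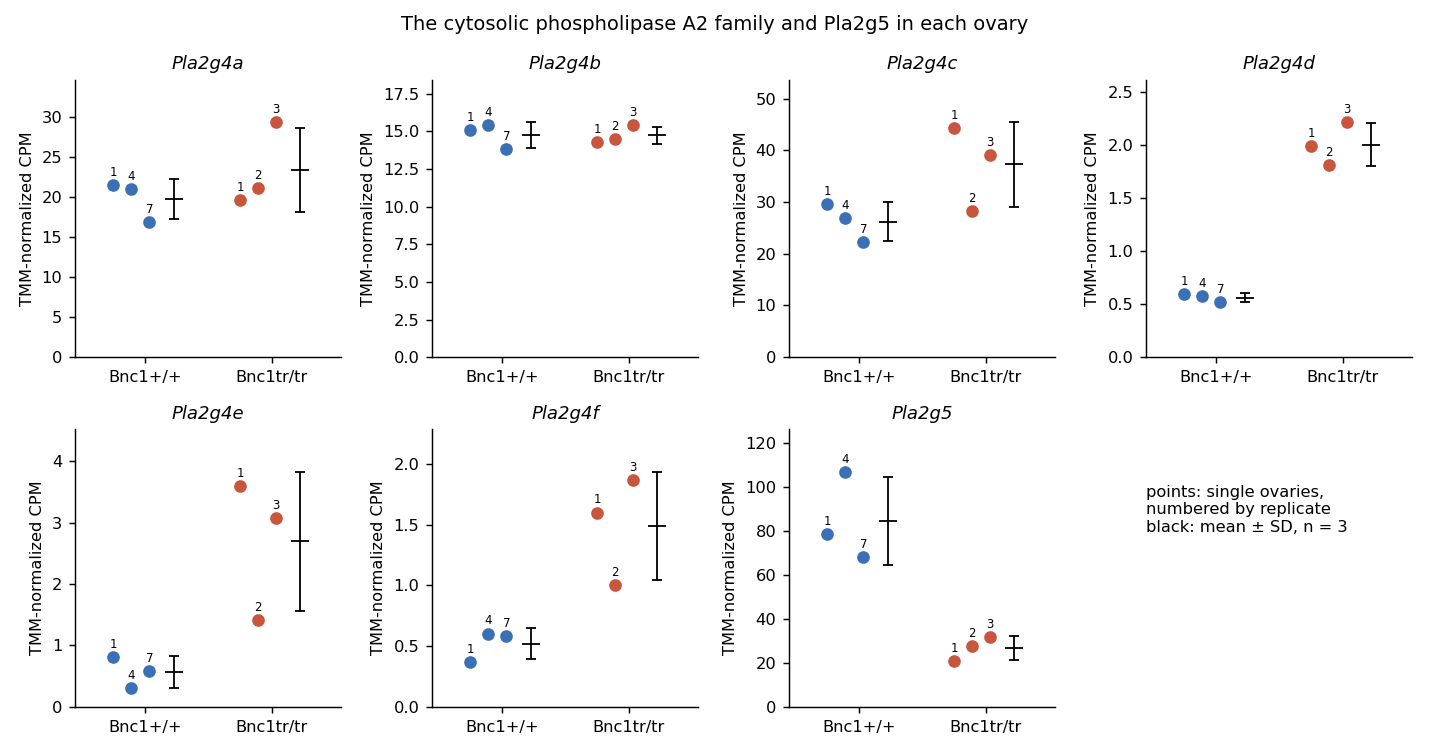
TMM-normalized CPM (linear y axes that differ between panels) of the 6 cytosolic phospholipase A2 genes and of Pla2g5 in 3 Bnc1+/+ (blue) and 3 Bnc1tr/tr (red) ovaries, with replicate numbers above the points and the mean ± SD in black. Pla2g4d, Pla2g4e and Pla2g4f are low, 0.302 to 0.818 CPM in Bnc1+/+, and higher in Bnc1tr/tr ovaries, Pla2g5 is lower in Bnc1tr/tr ovaries, and Pla2g4a, Pla2g4b and Pla2g4c overlap.

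Among 12 tested genes of the 16 listed as downstream of lipoxygenases, a list that also held Cotl1, 1 was called (8.33%), beside 7.06% of all genes. It was Cyp4f18, which hydroxylates leukotriene B4, at 6.43, 4.89 and 5.62 CPM in Bnc1+/+ and 1.99, 3.54 and 2.47 CPM in Bnc1tr/tr ovaries (log2 fold change -1.08, SE 0.25, adjusted p = 0.0443 in edgeR). The call was lost without Bnc1+/+ replicate 1, 4 or 7 or Bnc1tr/tr replicate 1 or 3 (-1.18 to -0.91, adjusted p 0.0813 to 0.13). Cyp4f18 shares 181 exon bases (9.8%) with Zfp961 on the opposite strand. Mgst2, a leukotriene C4 synthase outside blood cells, was at 39.3, 43.8 and 33.1 CPM in Bnc1+/+ and 4.37, 17.3 and 15.4 CPM in Bnc1tr/tr ovaries. The groups of Mgst2 did not overlap, but the log2 fold change of -1.65 (SE 0.42) had an adjusted p of 0.0591 in edgeR. Without Bnc1tr/tr replicate 1, the lowest ovary, Mgst2 was called (-1.25, adjusted p = 0.0069). It was also called in DESeq2 (adjusted p = 0.0346), in limma-voom (0.0383) and in edgeR with no filter (0.0231). In the other 10 of the 14 alternatives it was not called, with an adjusted p of up to 0.199.

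None of 14 tested lysophospholipid acyltransferases other than Lpcat3 was called in edgeR, where 1 had an unadjusted p under 0.05, and 1, Lpgat1, was called in DESeq2 (log2 fold change -0.35, adjusted p = 0.0273). The largest value was that of Mboat1 (0.59, SE 0.35, adjusted p = 0.339 in edgeR), which was at 24.9 CPM in Bnc1tr/tr replicate 1 and at 9.28 to 10.9 CPM in the other 5 ovaries, and was 0.02 without that replicate. Of 13 regulators of phospholipid peroxidation 2 were called, both lower in Bnc1tr/tr ovaries. Over all genes tested 7.06% were called and 4.19% were called lower. Acsl4, which activates arachidonic acid for Lpcat3, was at 173, 188 and 188 CPM in Bnc1+/+ and 39.1, 86.1 and 70.2 CPM in Bnc1tr/tr ovaries (log2 fold change -1.49, SE 0.25, adjusted p = 0.0153 in edgeR). Gpx4, which reduces phospholipid hydroperoxides, was at 50.3, 47.3 and 47.7 CPM in Bnc1+/+ and 31.4, 35.6 and 37.5 CPM in Bnc1tr/tr ovaries (log2 fold change -0.47, SE 0.09, adjusted p = 0.0258 in edgeR). Acsl4 lost its call without Bnc1+/+ replicate 4 or 7 (-1.48, adjusted p 0.0635 to 0.0844), and Gpx4 without Bnc1+/+ replicate 1, 4 or 7 (-0.50 to -0.46, adjusted p 0.0807 to 0.105). Acsl4 is known to favour and Gpx4 to limit peroxidation, and both were lower. The corpus luteum sum was lower in the same ovaries, at 7360 to 12700 against 23400 to 28100 CPM, and its part in the lower levels of Acsl4, Gpx4, Cyp4f18, Pla2g5 and Pafah2 was not tested. Acsl3, which handles monounsaturated fatty acids, was at 15.0 to 17.5 CPM in Bnc1+/+ and 19.8 to 28.1 CPM in Bnc1tr/tr ovaries (log2 fold change 0.59, adjusted p = 0.0566 in edgeR). It was called without Bnc1tr/tr replicate 2 (0.73, adjusted p = 0.0189) and in DESeq2 (adjusted p = 0.00864). In edgeR it was also called with no filter (0.0436) and with library size alone (0.0326). In the other 10 of the 14 alternatives it was not called, with an adjusted p of up to 0.272.

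**Figure D5:**
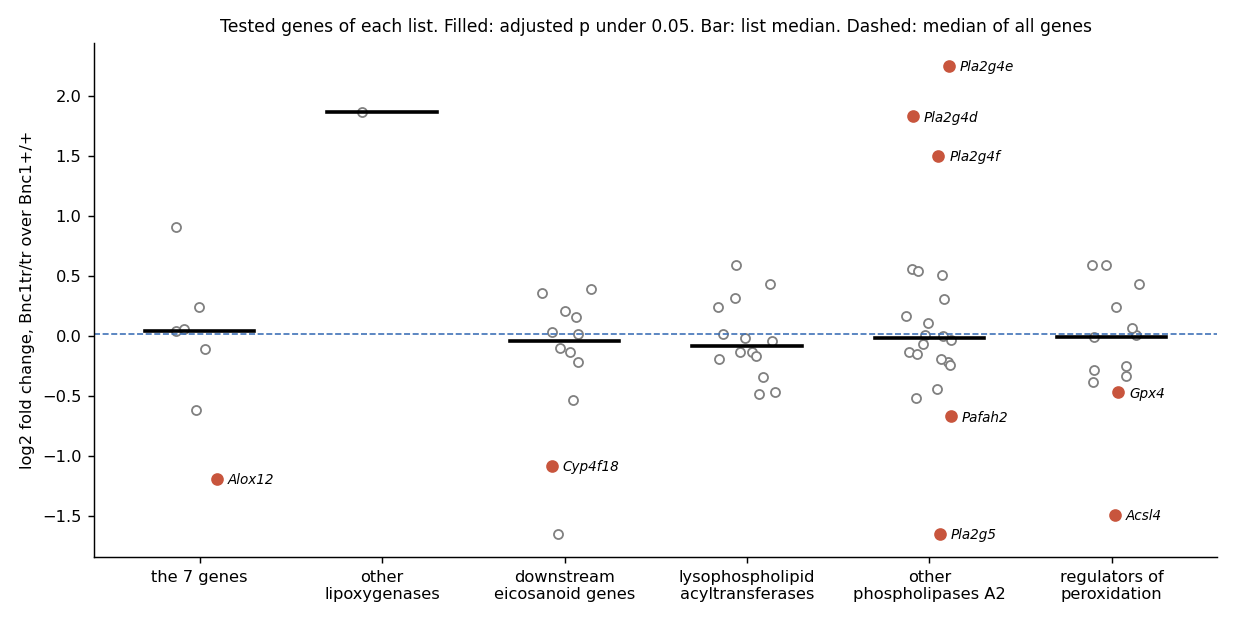
Log2 fold change (y axis, Bnc1tr/tr over Bnc1+/+) of every tested gene of the 7 and of the 5 pathway lists, filled and named where the adjusted p was under 0.05, with the list median as a black bar and the median of all genes (0.02) dashed. The calls lie on both sides of 0 for the phospholipases A2 (3 higher, 2 lower) and below 0 for the regulators (2 lower), and there is none among the acyltransferases.

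The genes nearest to each member in expression were sought among 16735 tested genes with a mean of at least 1 CPM, by the root mean square difference of log2 CPM over the 6 ovaries after subtraction of each gene's mean. Nearest to Alox12 were Pitpnc1 (0.0667), Fkbp5 (0.0778) and Endod1 (0.0802). All 3 were called lower, and Pitpnc1, a phosphatidylinositol transfer protein, was at 52.8 to 56.4 CPM in Bnc1+/+ and 20.7 to 25.8 CPM in Bnc1tr/tr ovaries. Genes chosen in this way share the member's difference between the groups, so whether they were called is not a separate result. Nearest to Lpcat3 were Nr0b2 (0.0497), Lrrc20 (0.0516) and Sbk1 (0.0554), to Alox5ap Ntpcr (0.0469), Txn1 (0.0576) and Gm7743 (0.0633), and to Pla2g4a Endog (0.0417), Cenpl (0.0613) and Slfn9 (0.0625). None of these 9 was called. For Alox15 the nearest were Gm867 (0.344), Ugt1a1 (0.382) and Gramd2 (0.389), at distances several times those of the other members, and none was called. Alox5 and Aloxe3 had means under 1 CPM and were left out of the search.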

How the data were processed

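Total RNA of whole ovaries was extracted with TRIzol, and single-end libraries made with an Ion Total RNA-Seq kit were sequenced on an Ion Proton. Raw counts of reads per gene and ovary were deposited by the authors without normalization. The submitters' processing notes list the builds mm10 and Sscrofa10.2 (a pig genome) with no role given, and the aligner and counting tool are not given in the sources used here. Counts were filtered with filterByExpr (minimum count 10), scaled by TMM and tested two-sided in edgeR 4.0.16 under R 4.3.3 (glmQLFit, glmQLFTest), and p values were adjusted after Benjamini and Hochberg over 19423 genes. After the filter, between 25222673 and 34375698 counts per ovary were used, and 1 read was worth 0.0302 to 0.0385 CPM. The edgeR test gives no SE, so each SE was the absolute log2 fold change divided by the square root of the F statistic. Intervals were built from these SEs and cover the spread between ovaries. Exon lengths and positions came from GRCm38 with a GENCODE annotation, promoters from RefSeq (GRCm38.p6). The tests were checked on simulated counts.

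The 7 genes, the lists and the alternatives were chosen with earlier results of these data known. Named from each of the 5 pathway lists were all called genes and the gene with the largest change among those not called (mean of at least 1 CPM), and for each member the 3 nearest profiles. Bnc1, Bcl6b, Lpgat1, Pla2g4b, Pla2g4c, Pla2g12a, Abhd4, the single marker genes and the genes that overlap a member or list gene were added after their values were seen. Alternatives were other scalings and filters, DESeq2 1.42.0, limma-voom (limma 3.58.1), a robust edgeR fit and omission of ovaries.

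Of the marker lists not mentioned in the report, 3 of 10 oocyte, 1 of 10 granulosa cell and 1 of 10 theca and stroma markers were called higher, and 0 of 5 tested mast cell markers in edgeR or DESeq2 (2 had an unadjusted p under 0.05). Over all genes tested 7.06% were called in edgeR and 2.88% were called higher.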

Additional observations from a re-analysis of the deposited data

How the results depend on the processing

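The paper states that littermates were compared, but the labels name no litter or batch and no pairs, and the genotypes share only replicate number 1. No paired analysis was therefore possible, and the p values take no account of litters. The number of genes called was 320 to 1282 when single ovaries were left out, 304 without Bnc1+/+ replicate 1 and Bnc1tr/tr replicate 3 together, 2420 with DESeq2 and 648 when the fold change also had to exceed 1 on the log2 scale. Scaling by library size alone moved the median log2 fold change of all genes from 0.0181 to 0.118. Alox12 kept its call in all 14 alternatives. Lpcat3 was called with DESeq2 (-0.62, adjusted p = 0.0189). When single ovaries were left out the log2 fold change ran from -0.29 to 0.60 for Alox5, from -0.09 to 0.25 for Alox5ap and from -1.45 to 0.36 for Alox15, changing sign 3 times in each, and Alox12e ran from -0.79 to 4.03. Without Bnc1+/+ replicate 1 and Bnc1tr/tr replicate 3 together it was 0.78 for Alox5 and 0.29 for Alox5ap. The sign was negative without Bnc1+/+ replicate 4 (-0.10 and -0.03), Bnc1+/+ replicate 7 (-0.29 and -0.05) and Bnc1tr/tr replicate 2 (-0.25 and -0.09) for Alox5 and Alox5ap, and for Alox15 it was positive without Bnc1+/+ replicate 1 (0.11), Bnc1tr/tr replicate 1 (0.36) and Bnc1tr/tr replicate 2 (0.17). Called genes downstream of lipoxygenases numbered 0 with library size alone, 2 with no filter, DESeq2 or limma-voom, 0 without both ovaries and 0 to 1 when single ovaries were left out. Called phospholipases A2 numbered 1 without both ovaries and 1 to 7 when single ovaries were left out, and called regulators of peroxidation 0 and 0 to 3. DESeq2 called 7 phospholipases A2, among them Pla2g12a (0.31, adjusted p = 0.046) and Abhd4 (-0.52, adjusted p = 0.00286). Abhd4 was also called with limma-voom and with no filter, and had an adjusted p of 0.0511 in the main edgeR fit. DESeq2 called 1 acyltransferase. Per kilobase of the longest transcript, Lpcat3 was at 52.7 and Pla2g4a at 6.27 CPM. For 13 named list genes, 135 of 180 values kept direction and call, 36 lost the call, 8 gained it and 1 changed sign. Apart from the numbers of ovaries and genes that each alternative itself changes, the cause of these differences was not tested. Alox5 and Aloxe3 had 13 to 51 reads per ovary, and their intervals reach changes of over 1 on the log2 scale.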
